A study of Antirrhinum majus with 21 samples.

Results

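Scaffold460 is 1 sequence of the JICv1 snapdragon genome assembly, and its genes were followed by position across 7 genotypes of *Antirrhinum majus*. Each gene was assigned to the sequence where its transcripts aligned with the highest score, and 111 genes fell on scaffold460. The members were chosen by their measured level: they are the 89 of these with at least 0.5 CPM (reads scaled to library size) in at least 3 libraries, out of 24674 genes that met the same threshold across the whole series. The other 22 placed genes did not reach it, and 6 of them were at 0 in every library. Just inside the threshold was AnMG0001158900 (295561 to 296331), where the lowest of its 3 highest libraries had 0.518 CPM; just outside was AnMG0000426300 (727229 to 727433), at 0.425 CPM by the same measure. The files do not pair gene IDs with names, so the genes are given by ID and position, with no role, and the tissue could not be checked against marker genes.

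The plants differed at ROSEA (ROS) and ELUTA (EL), linked loci that set flower colour in snapdragon. ROS encodes MYB transcription factors that switch on anthocyanin synthesis in the corolla, and dominant EL alleles restrict where the magenta pigment forms. The eluta genotypes were ROSji7_ELstr and ROSpse_ELstr, which joined a dominant ROS allele (of *A. majus* stock line JI7 or of *A. m. pseudomajus*) to the dominant EL allele of *A. m. striatum*. The magenta genotypes were ROSji7_elji7 and ROSpse_elpse, which had the same dominant ROS alleles with the recessive EL allele of the same source. Pale flowers were those of rosrec_elpse, whose ROS allele was recombinant (upstream from *striatum*, downstream from *pseudomajus*) with the recessive *pseudomajus* EL allele. The white genotypes were rosstr_ELstr, with the recessive ROS and dominant EL alleles of *striatum*, and rosdor_eldor, with recessive alleles at both loci from the *A. majus* stock line rosea-dorsea. Each genotype had 3 plants, and RNA came from the whole corolla of a bud of 5 to 10 mm at stage 12 to 13. The labels give 1 allele per locus, with no zygosity and no account of the background in which an allele stood. Whether scaffold460 is linked to ROS and EL is not stated in the sources used here.

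Library totals ran from 8925834 to 41860396 estimated reads, and no 2 libraries of a genotype agreed within sampling noise. The plant IDs name families: the ROSji7_ELstr plants came from family A172, the ROSji7_elji7 plants from A183 and the rosrec_elpse plants from A177, and these families held no other genotype, so family and genotype cannot be told apart there. Each of the 3 rosdor_eldor plants shared a family with ROSpse_elpse (A181), ROSpse_ELstr (A174) or rosstr_ELstr (A182). Library numbers fall into 3 series, with 5 libraries below 3000, 13 in the middle and 3 above 8000. In bulk corolla, fewer cells of a type and less RNA per cell cannot be told apart.

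The members spanned positions 24329 to 975906, with 35 on the plus strand and 54 on the minus strand. Their median level over the 21 libraries was 10.6 TPM (transcript abundance corrected for length), against 12.6 TPM for all tested genes. AnMG0000420200 (962438 to 963902, plus strand) had the highest level of the members, at 625 TPM and 424 CPM. The next by CPM were AnMG0000429300 (620334 to 629161) at 239 CPM, AnMG0001178600 (103162 to 109910) at 142, AnMG0000435900 (396039 to 401300) at 130 and AnMG0001160400 (271497 to 272217) at 116. Per length the order differed, since AnMG0001160400 had 254 TPM and AnMG0000429300 had 39.5. In 61 members every library passed the threshold; 28 passed in fewer than 21, and 2 in exactly 3. A member that passed through its high genotypes alone had to differ between genotypes, so counts over the members are given beside those over all genes and are not read as support.

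Across the 7 genotypes 29 of the 89 members differed (32.6%; edgeR quasi-likelihood F test, Benjamini-Hochberg adjusted p under 0.05 over all genes tested), where 12.1% of all tested genes did; DESeq2 called 42 members and 27.8% of all genes. They lay along the whole scaffold, with 3 of the 14 members in the first 250000 bases, 8 of 27 in the next, 10 of 28 in the stretch after that and 8 of 20 in the last. The smallest adjusted p-values were those of AnMG0000423700 (2.76e-05), AnMG0000421600 (4.46e-05), AnMG0000432900 (0.000138) and AnMG0001178000 (0.000397). In all 4, the plants with the JI7 allele of ROS were low. The other sequences counted were the one named after the ROS locus, with 35 of 80 genes called, and scaffold1195, with 53 of 118. They were fixed by name, not by their number of genes, and no further sequence was counted. The share on scaffold460 was not the highest of these 3, which does not show what is usual for a sequence of this size.

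The clearest contrast along the scaffold was between the genotypes with the ROS allele of JI7 and those with the ROS allele of *pseudomajus*. These genotypes also differed in family and, for the magenta ones, in EL allele. With eluta and magenta genotypes pooled, 17 members were lower and 1 higher in the 6 ROSji7 plants than in the 6 ROSpse plants (edgeR, adjusted p under 0.05). Over all tested genes 3.08% were called, 1.93% lower and 1.15% higher. The median log2 fold change of the 89 members was -0.17, against 0.03 for all genes. The genes without reads in ROSji7 plants lie below this median even at their lower bounds, so their fitted size could not change it. This comparison was added after the data were examined. DESeq2 called 23 members lower and 2 higher, and 9.06% of all genes. The 17 lower members formed no single block: a run of 4 neighbouring members lay at 479459 to 492256, a run of 3 at 695262 to 707345 and another of 3 at 869572 to 888263, and the remaining 7 each stood alone between members that were not lower.

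**Figure D1:**
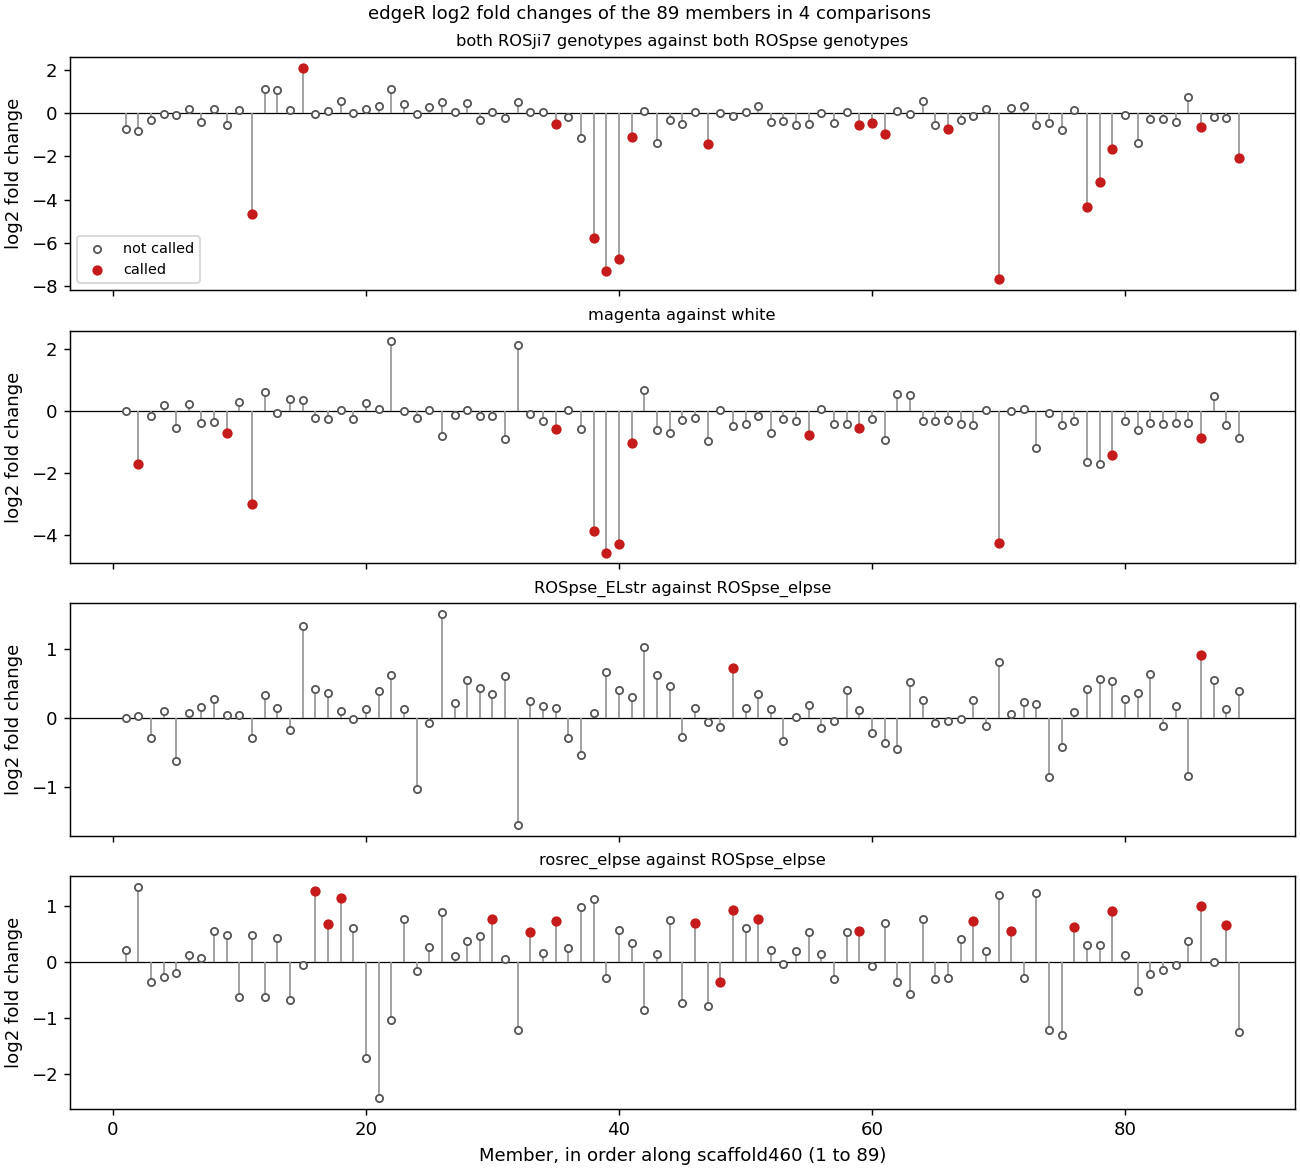
Log2 fold change (edgeR) of each member in order along scaffold460, for 4 comparisons; filled points are called at an adjusted p under 0.05. In the top panel 17 members lie below 0 and 1 above among the called ones, and the fitted values of AnMG0000433400 and AnMG0000433100 (members 38 and 39), which had no reads in the ROSji7 plants, depend on a prior count and are no measure of size.

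The run at 479459 held 2 members without a read in any ROSji7 plant. AnMG0000433400 (479459 to 479831, plus strand) had 0 counts in all 6 ROSji7 plants, against 0.0563, 0.221 and 0.423 CPM (lowest, median and highest) in the 6 ROSpse plants. A count of 0 over the 6 ROSji7 libraries allows a level of up to 0.0178 CPM (3 counts; counting error only), so the gene was at least 13.2-fold lower there (edgeR adjusted p 0.00155). AnMG0000433400 passed the level threshold in exactly 3 libraries, 1 each of rosrec_elpse, rosstr_ELstr and rosdor_eldor. Next to it, AnMG0000433100 (480409 to 480873, minus strand) likewise had 0 counts in the 6 ROSji7 plants. Its ROSpse plants had 0.475, 0.719 and 0.945 CPM, so that the ROSji7 plants were at least 39.4-fold lower (edgeR adjusted p 0.00155). The rosrec_elpse replicate 1 was also at 0, while the white plants had 0.651 to 1.76 CPM.

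Its neighbour AnMG0000432900 (481116 to 482853, minus strand) had 2 counts over the 6 ROSji7 plants and 262 over the 6 ROSpse plants. The highest ROSji7 plant had 0.0508 CPM and the lowest of the 15 other plants 0.992 CPM, so the groups were far apart. The ratio of ROSpse to ROSji7 was 149, with a 95% counting interval of 40.8 to 1235 (edgeR adjusted p 1.41e-05). The fourth of the run, AnMG0000432700 (483986 to 492256, minus strand), was reduced but not lost. Its level was 11.3 ± 2.75 CPM in ROSji7 plants and 22.4 ± 5.27 CPM in ROSpse plants (SD, n = 6 each), a log2 fold change of -1.10 ± 0.18 (standard error) at an edgeR adjusted p of 0.0044. All 6 ROSji7 plants, at 7.77 to 15.0 CPM, lay below the 15 others, at 16.9 to 32.3 CPM. Within the middle library series alone the call of AnMG0000432700 was lost, at an edgeR adjusted p of 0.0760 in a range over alternatives of 2.64e-06 to 0.0760.

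AnMG0000423700 (767047 to 784610, minus strand) showed the largest fitted fold change with reads in both groups. The 3 ROSji7_ELstr plants had 0, 0.0355 and 0.0293 CPM and the 3 ROSji7_elji7 plants 0.152, 0.0386 and 0 CPM. The ROSpse_ELstr plants had 6.87, 6.84 and 17.1 CPM and the ROSpse_elpse plants 4.82, 3.20 and 9.28 CPM. Every ROSpse plant was thus far above every ROSji7 plant, and the pale and white plants were in the same high range, at 5.65 to 19.2 CPM. The log2 fold change of ROSji7 against ROSpse was -7.68 ± 0.60 (standard error) at an edgeR adjusted p of 1.22e-06, from a mean of 0.0426 ± 0.0564 CPM in ROSji7 plants and 8.01 ± 4.90 CPM in ROSpse plants (SD, n = 6 each).

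Far from these, AnMG0001178000 (135780 to 138137, plus strand) was the first lower member along the scaffold, and neither of its neighbours was called. Its 6 ROSji7 plants had 0.0386, 0.0680 and 0.102 CPM (lowest, median, highest), against 1.25, 1.57 and 3.10 CPM in the ROSpse plants. No ROSji7 plant came near the others. The log2 fold change was -4.69 ± 0.50 (standard error) at an edgeR adjusted p of 6.96e-05.

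The run at 869572 to 888263 joined a pair of low members to a higher one. AnMG0000421600 (884165 to 888263, plus strand) had 2.76, 2.84 and 2.73 CPM in the ROSji7_ELstr plants and 3.55, 3.25 and 3.26 CPM in the ROSji7_elji7 plants. Its ROSpse_ELstr plants had 8.16, 10.3 and 14.6 CPM and its ROSpse_elpse plants 6.42, 7.95 and 8.39 CPM. The ROSji7 plants were close together and below all 15 others, with a log2 fold change against ROSpse of -1.66 ± 0.17 (standard error) at an edgeR adjusted p of 5.66e-05. AnMG0000422000 (869572 to 871053, plus strand) had at most 0.102 CPM in 5 ROSji7 plants, but ROSji7_elji7 replicate 3 had 1.12 CPM. The 15 other plants had 1.29 to 4.39 CPM, so the groups still did not overlap, and the log2 fold change against ROSpse was -4.36 ± 0.73 (standard error) at an edgeR adjusted p of 0.00452. AnMG0000421700 (871554 to 873427, minus strand) had at most 0.204 CPM in a ROSji7 plant and 0.475 to 1.47 CPM in the ROSpse plants, a log2 fold change of -3.20 ± 0.59 (standard error) at an edgeR adjusted p of 0.00952. The rosrec_elpse replicate 1, at 0.173 CPM, fell within its ROSji7 range. Both AnMG0000422000 and AnMG0000421700 lost the call in the middle library series alone, at edgeR adjusted p-values of 0.0803 and 0.0679 in ranges over alternatives of 7.17e-08 to 0.0803 and 2.93e-05 to 0.0679.

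Other lower members changed less. AnMG0000425700 (734546 to 738883, minus strand) had 31.2 to 42.2 CPM in ROSji7 plants and 48.9 to 69.7 CPM in ROSpse plants, a log2 fold change of -0.72 ± 0.13 (standard error) at an edgeR adjusted p of 0.00721. Its ROSji7 range met that of the pale and white plants, the lowest of which had 39.9 CPM. AnMG0000427800 (695262 to 697961, plus strand), first of the run of 3, had 10.8 to 13.1 CPM in ROSji7 plants and 15.7 to 17.3 CPM in ROSpse plants, and no plant of the other 5 genotypes was as low as the ROSji7 plants. AnMG0000427300 and AnMG0000427200, the rest of that run, overlapped between the groups, as did AnMG0000434600 (447691 to 449882) and AnMG0000420200. AnMG0000430900 (565866 to 566881) had 0.170 to 0.711 CPM in ROSji7 plants and 0.954 to 1.51 CPM in ROSpse plants. Its rosrec_elpse plants, at 0.488 to 0.891 CPM, overlapped the ROSji7 range, and its white plants had 0.850 to 2.02 CPM. AnMG0000419500 (974347 to 974686), the last member of the scaffold, had 0.147 to 0.305 CPM in ROSji7 plants and 0.563 to 1.36 CPM in ROSpse plants. It was also low in rosrec_elpse plants, at 0.0431 to 0.529 CPM, and in the lowest rosdor_eldor plant, at 0.112 CPM. AnMG0000419500 overlaps AnMG0000419300 on the same strand. Of 18 alternatives, the call was kept in 14 for AnMG0000419500, 9 for AnMG0000434600, 8 for AnMG0000430900, 7 for AnMG0000420200, 6 for AnMG0000427300 and 5 for AnMG0000427200. AnMG0000427800 lost it in the middle library series alone.

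The 1 higher member was AnMG0001030710 (251311 to 252740, minus strand). Its 6 ROSji7 plants had 0.612, 0.981 and 1.62 CPM (lowest, median, highest), against 0.0633, 0.271 and 0.384 CPM in the ROSpse plants, and the highest pale or white plant had 0.560 CPM. Its log2 fold change was 2.10 ± 0.55 (standard error) at an edgeR adjusted p of 0.0482. The call stood close to the threshold and was kept in 5 of the 18 alternatives run.

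Set against the 15 plants of the 5 other genotypes, 10 members had all 6 ROSji7 plants below every other plant and 1 had all 6 above. Over all tested genes 0.122% (30 genes) and 0.162% (40 genes) did so, so 10 of those 30 genes were on scaffold460. Among these 10, AnMG0001178000, AnMG0000433400, AnMG0000432900 and AnMG0000423700 had at most 0.152 CPM in any ROSji7 plant. They met the 0.5 CPM threshold through other genotypes alone, so the count is a description, with no test. AnMG0001180600 and AnMG0001178300 were also among the 10 but were not called between ROSji7 and ROSpse. AnMG0001180600 shares its footprint with AnMG0001181600, so its level is uncertain. Calls of 7 members, AnMG0001178000, AnMG0000433400, AnMG0000433100, AnMG0000432900, AnMG0000425700, AnMG0000423700 and AnMG0000421600, were kept in every alternative run for ROSji7 against ROSpse in which the gene was tested. In the middle library series alone 7 members were lower and 0 higher, and with the series as a term 18 were lower and 1 higher. Without ROSji7_ELstr replicate 1, 2 or 3, or without ROSpse_ELstr replicate 3, 11 members were called.

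**Figure D2:**
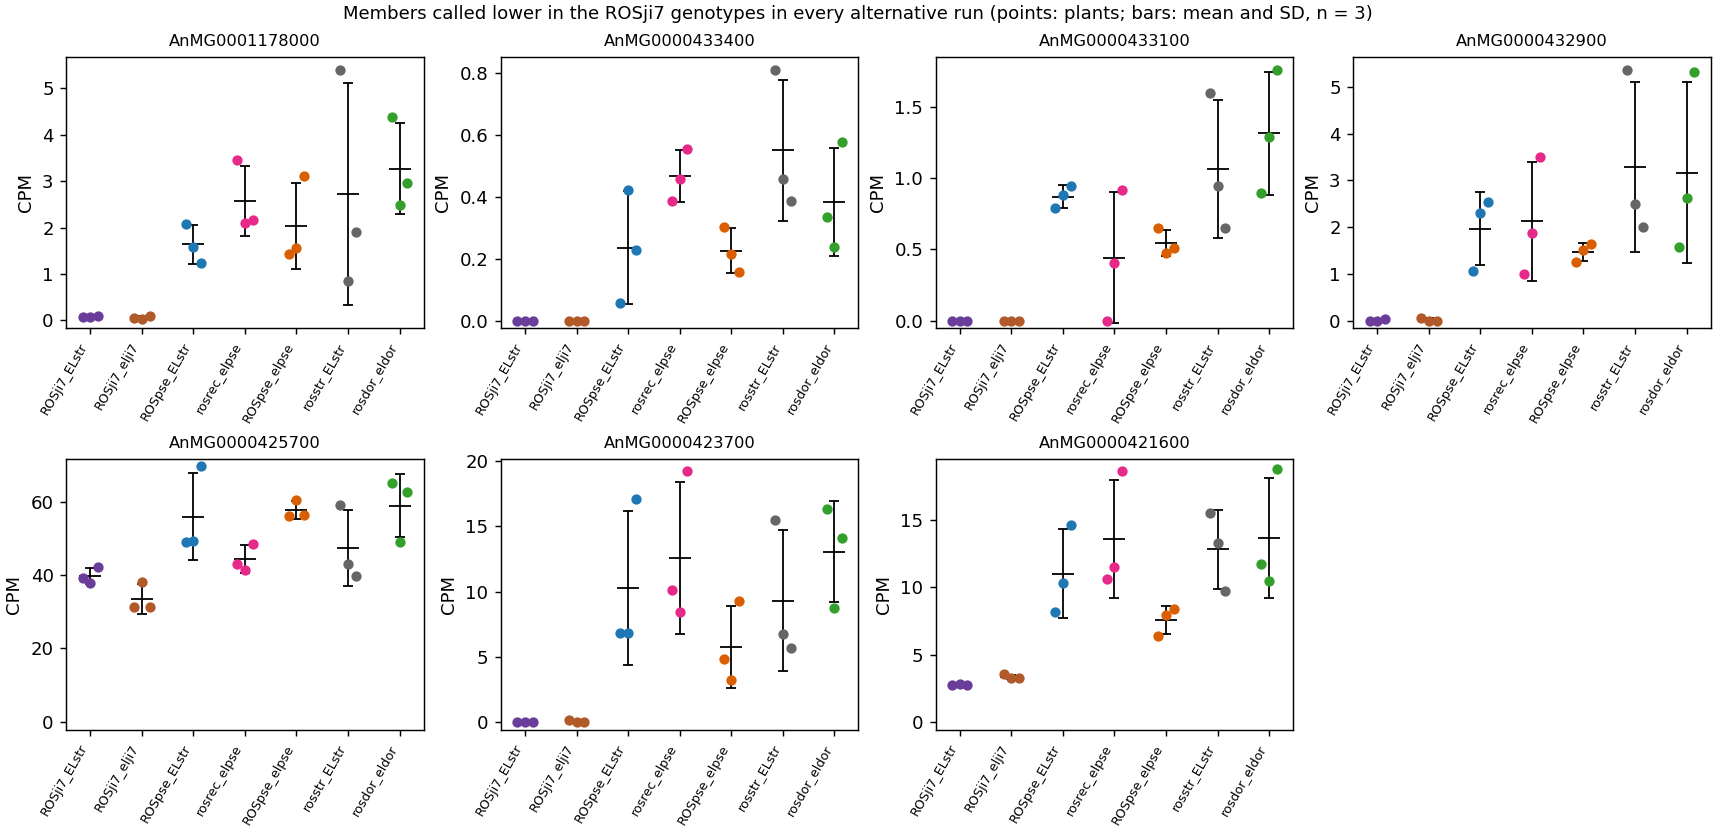
CPM of 7 members in each plant, with the mean and SD of the 3 plants of each genotype. In every panel the 6 ROSji7 plants, on the left, lie below the 6 ROSpse plants; for AnMG0000433100 the rosrec_elpse plant at 0 shares their level, and for AnMG0000425700 their range meets that of the pale and white plants.

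The same contrast was then taken between the magenta genotypes and between the eluta genotypes, with no library in common. The magenta genotypes differed in EL allele as well as in ROS allele, while the eluta genotypes shared the EL allele of *striatum*. Between the magenta genotypes, ROSji7_elji7 had 9 members lower and 2 higher than ROSpse_elpse (edgeR, adjusted p under 0.05; 4.62% of all tested genes were called, 2.47% lower and 2.15% higher); DESeq2 called 18 members and 12% of all genes. Between the eluta genotypes, ROSji7_ELstr had 9 lower and 0 higher than ROSpse_ELstr, where 0.608% of all genes were called, 0.405% lower. At an unadjusted p under 0.05, 22 were lower and 2 higher (8.51% of all genes), and DESeq2 called 13 lower and 0 higher (2.25% of all genes). Of the 9 lower members, 6 were shared, 66.7% of each list, where over all tested genes 40 were shared of 610 and 100 lower calls (6.56% and 40% of the lists). The 6 were AnMG0001178000, AnMG0000433400, AnMG0000433100, AnMG0000432900, AnMG0000423700 and AnMG0000421600. The 2 members higher in ROSji7_elji7 were AnMG0001030710 and AnMG0000436300 (383181 to 393530, minus strand). AnMG0000436300 had 12.2, 10.5 and 9.24 CPM in ROSji7_elji7 plants and 6.07, 5.44 and 6.52 CPM in ROSpse_elpse plants, a log2 fold change of 0.74 ± 0.20 (standard error) at an edgeR adjusted p of 0.0424, and kept its call in 2 of 12 alternatives. Between the magenta genotypes 5 members were called without ROSji7_elji7 replicate 1 and 7 without ROSpse_elpse replicate 1 or 2; between the eluta genotypes 4 were called without any of the ROSji7_ELstr replicates.

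The difference between the eluta and the magenta genotype, called the EL effect here, was then compared between the ROS alleles. In each pair the family changed with EL, and the recessive EL alleles of the pairs were not the same. Differences due to EL and to family cannot be told apart here. ROSji7_ELstr against ROSji7_elji7 gave 0 members (edgeR, adjusted p under 0.05; 0.19% of all genes were called), 10 at an unadjusted p under 0.05 (10.7% of all genes), and 0 with DESeq2 (1.79% of all genes). Of the 17 lower members, 10 had a lower mean in ROSji7_ELstr, 5 a higher one and 2 were at 0 in both. The difference of the EL effects between ROSji7 and ROSpse was called for 0 members (edgeR; 0.494% of all genes), with 7 at an unadjusted p under 0.05 (11.8% of all genes) and 1 with DESeq2 (2.61% of all genes). The 2 families of the ROSji7 plants held no other genotype, so the ROS allele and other differences of these families cannot be told apart.

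Pooled by colour, magenta plants had 13 members lower and 0 higher than white plants (edgeR, adjusted p under 0.05; 1.28% of all genes were called, 0.762% lower and 0.515% higher). At an unadjusted p under 0.05, 39 were lower and 3 higher (14.5% of all genes), and DESeq2 called 18 lower and 0 higher (4.41% of all genes). The median log2 fold change of the members was -0.32, against 0.01 for all genes, and 65 of the 89 had a negative one. AnMG0000423700 had 0, 1.67 and 9.28 CPM (lowest, median, highest) in the 6 magenta plants and 5.65, 11.4 and 16.4 CPM in the 6 white plants. The magenta plants thus split by genotype, the 3 ROSji7_elji7 plants near 0 and the ROSpse_elpse plants partly within the white range. AnMG0000432900 was split in the same way, with 0.745 ± 0.807 CPM in magenta and 3.23 ± 1.68 CPM in white plants (SD, n = 6 each; edgeR adjusted p 0.000896). Over all 89 members, the 3 ROSji7_elji7 plants were below all 6 white plants in 24 (1.82% of all tested genes), and the 3 ROSpse_elpse plants in 9 (3.62% of all genes). The 3 ROSji7_ELstr plants, whose colour is eluta, were so in 20 (1.82% of all genes), the ROSpse_ELstr plants in 1 (1.4%) and the pale rosrec_elpse plants in 4 (6.2%). These counts share the white plants and have no test. In the middle library series alone 7 members were lower in magenta plants, 6 were without rosdor_eldor replicate 3, and 8 were without ROSpse_elpse replicate 2 or 3 or rosstr_ELstr replicate 1.

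ROSji7_elji7 against rosdor_eldor gave 10 members lower and 0 higher (edgeR, adjusted p under 0.05; 0.223% of all genes were called, 0.158% lower); at an unadjusted p under 0.05, 34 were lower and 3 higher (10.1% of all genes), and DESeq2 called 18 lower and 0 higher (1.24% of all genes). AnMG0000433100 had 0 counts in ROSji7_elji7 and 0.896, 1.29 and 1.76 CPM in rosdor_eldor plants. AnMG0000432900 had 1 count in ROSji7_elji7 and 275 in rosdor_eldor plants, a ratio of rosdor_eldor to ROSji7_elji7 of 283 with a 95% counting interval of 50.3 to 11211 (edgeR adjusted p 0.000568). AnMG0000423700 had a log2 fold change of -7.88 ± 0.83 (standard error) at an edgeR adjusted p of 0.000155. AnMG0000433100 was at least 36.7-fold lower (edgeR adjusted p 0.0246). Leaving out ROSji7_elji7 replicate 1 or rosdor_eldor replicate 3 left 4 called members, and a fit of these 6 libraries alone called 0. ROSpse_elpse against rosdor_eldor gave 0 members (edgeR; 0.515% of all genes), 9 lower and 0 higher at an unadjusted p under 0.05 (12% of all genes), and 3 lower with DESeq2 (2.87% of all genes). ROSpse_ELstr against rosstr_ELstr gave 0 (edgeR; 0.454% of all genes), 8 at an unadjusted p under 0.05 (11.5% of all genes) and 0 with DESeq2 (2.89% of all genes). Between the white genotypes, rosstr_ELstr against rosdor_eldor gave 0 (edgeR; 0.077% of all genes), 3 unadjusted (6.77% of all genes) and 0 with DESeq2 (0.478% of all genes). The ROSji7_elji7 and ROSpse_elpse comparisons share the rosdor_eldor plants.

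In AnMG0000420200, the most abundant member, the ROSpse_elpse plants were close to the ROSji7 plants. It had 258, 272 and 251 CPM in ROSji7_ELstr, 291, 303 and 264 CPM in ROSji7_elji7 and 293, 301 and 286 CPM in ROSpse_elpse plants. The ROSpse_ELstr plants had 600, 474 and 583 CPM, the rosrec_elpse plants 577, 489 and 572, the rosstr_ELstr plants 625, 373 and 475, and the rosdor_eldor plants 615, 416 and 590. The 9 plants of the first 3 genotypes lay between 251 and 303 CPM and the 12 others between 373 and 625 CPM, with no overlap. This split was read from the values of this gene, and how many other genes split in this way was not counted. AnMG0000430300 and AnMG0000421000, described next, did not. The gene was higher in ROSpse_ELstr than in ROSpse_elpse, by a log2 fold change of 0.92 ± 0.22 (standard error) at an edgeR adjusted p of 0.0339, and lower in magenta than in white plants, by -0.88 ± 0.16 (standard error) at an edgeR adjusted p of 0.0132. It was also lower in ROSji7_ELstr than in ROSpse_ELstr, by -1.19 ± 0.22 (standard error) at an edgeR adjusted p of 0.0171, a call lost without any of the ROSji7_ELstr replicates. The difference of the EL effects between ROSji7 and ROSpse was not called, with a log2 value of -1.07 ± 0.31 (standard error) and an edgeR adjusted p of 0.148.

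ROSpse_ELstr against ROSpse_elpse gave 2 members higher and 0 lower (edgeR, adjusted p under 0.05; 2.82% of all genes were called, 1.38% higher). At an unadjusted p under 0.05, 7 were higher and 0 lower (15.6% of all genes), and DESeq2 called 3 higher and 0 lower (6.21% of all genes). The other member was AnMG0000430300 (580957 to 585448, minus strand), with 66.9, 59.3 and 58.2 CPM in ROSpse_ELstr and 39.7, 34.1 and 37.9 CPM in ROSpse_elpse plants, a log2 fold change of 0.73 ± 0.16 (standard error) at an edgeR adjusted p of 0.0218. Eluta against magenta plants also gave 2 higher and 0 lower (edgeR; 2.25% of all genes were called, 1.17% higher), with 10 higher and 2 lower at an unadjusted p under 0.05 (14.6% of all genes) and 3 higher and 0 lower with DESeq2 (5.46% of all genes). These were AnMG0000430300 again and AnMG0000421000 (927552 to 932347, plus strand). AnMG0000421000 had 39.8 to 55.4 CPM in the 6 eluta plants and 18.3 to 34.2 CPM in the 6 magenta plants, a log2 fold change of 0.73 ± 0.17 (standard error) at an edgeR adjusted p of 0.0386, with no overlap. Its white plants had 28.1 to 44.7 CPM and its pale plants 21.8 to 29.0 CPM. AnMG0000430300 had 48.5 to 66.9 CPM in eluta and 34.1 to 44.2 CPM in magenta plants. Its white plants, at 46.8 to 57.8 CPM, and its pale plants, at 61.0 to 72.9 CPM, were also above the magenta plants. In both comparisons the share of members called in either direction was about that of all genes or below it. These calls are therefore not read as a trait of the scaffold. Neither comparison had a call in the middle library series alone, in a fit of the compared groups alone or, for ROSpse, with plant family as a term. Leaving out any 1 of the 6 ROSpse libraries left at most 1 call between ROSpse_ELstr and ROSpse_elpse, and without any ROSji7_ELstr replicate 0 were called between eluta and magenta plants; the cause was not tested.

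**Figure D3:**
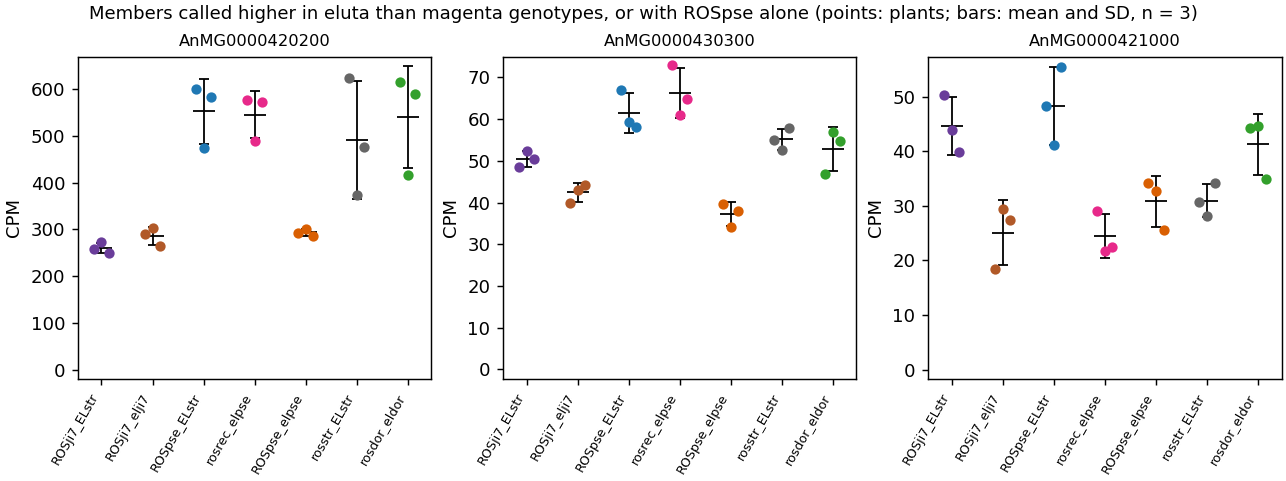
CPM of AnMG0000420200, AnMG0000430300 and AnMG0000421000 in each plant, with the mean and SD of the 3 plants of each genotype. AnMG0000420200 is at 251 to 303 CPM in ROSji7_ELstr, ROSji7_elji7 and ROSpse_elpse and at 373 to 625 CPM in the other genotypes. The other panels show eluta plants above magenta plants, with some white plants within the eluta range in each.

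The pale genotype rosrec_elpse shares the labelled EL allele of ROSpse_elpse but not its family or ROS allele, and had 16 members higher and 1 lower (edgeR, adjusted p under 0.05), where 13.6% of all tested genes were called, 7.27% higher and 6.31% lower. DESeq2 called 23 members and 19.4% of all genes. The largest rises lay near each other, at 255735 and 271497. AnMG0001030510 (255735 to 256178, minus strand) had 102, 128 and 214 CPM in rosrec_elpse and 40.3, 91.7 and 63.5 CPM in ROSpse_elpse plants, a log2 fold change of 1.27 ± 0.35 (standard error) at an edgeR adjusted p of 0.0259. AnMG0001160400 (271497 to 272217, plus strand) had 121, 152 and 232 CPM in rosrec_elpse and 50.7, 114 and 78.6 CPM in ROSpse_elpse plants, a log2 fold change of 1.14 ± 0.36 (standard error) at an edgeR adjusted p of 0.0458. In both, the groups were apart by a small gap, and the calls were kept in 6 and 4 of 11 alternatives. The 1 fall was AnMG0000430500 (569886 to 579269, minus strand), with 18.6, 25.5 and 25.7 CPM in rosrec_elpse and 30.2, 35.6 and 28.8 CPM in ROSpse_elpse plants (log2 fold change -0.36 ± 0.12, SE; edgeR adjusted p 0.04998). AnMG0000430300 and AnMG0000420200 were among the rises (edgeR adjusted p 0.00167 and 0.0076).

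The rosrec_elpse libraries were of the low and high number series, so no value exists within the middle series. With library series as a term 6 members were higher and 0 lower, and a fit of the 6 libraries alone gave 3 higher. Without rosrec_elpse replicate 3 the count was 6, without its replicate 2 it was 10, and without ROSpse_elpse replicate 2 or 3 it was 8. The pale plants had 0 called members against either white genotype (edgeR): against rosdor_eldor 19 at an unadjusted p under 0.05 (18.3% of all genes) and 3 with DESeq2 (7.79% of all genes), where edgeR called 3.21% of all genes. Against rosstr_ELstr, 11 were under 0.05 unadjusted (16.5% of all genes) and 2 with DESeq2 (6.52% of all genes), where edgeR called 1.84% of all genes.

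Some members differed between plants in the transcript their reads were counted to. In 16 members with several transcripts, 43 transcripts in all, 3 had a share of their gene's reads below that of all 15 other plants in each ROSji7 plant and 2 above, where 0.071% and 0.0521% of the 21115 transcripts of all such tested genes did. The 5 came from 3 genes, and in 2 of these they were complements of each other; the shares are a description, with no test. AnMG0000434600 was the clearest: its transcript T01 took 0 to 1.25% of the reads in ROSji7 plants and 20.3 to 67.6% in the others. Its T02 made up the rest, so the lower total of the gene in ROSji7 plants, 17.1 ± 2.01 CPM against 27.2 ± 6.82 CPM in the 15 others (SD), went with a near absence of T01. In AnMG0000436500 transcript T02 took 75.3 to 93.1% in ROSji7 plants and 0 to 71.8% in the others, among which the rosrec_elpse plants had 0, 31.9 and 3.64%. The remaining gene, AnMG0000431900, had a T03 share of at most 0.50% in ROSji7 plants and 0.529 to 2.46% in the others, at few reads. Salmon splits reads between transcripts by a model. The part of sequence differences between plants and reference transcripts in these shares, and in the levels above, was not tested.

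**Figure D4:**
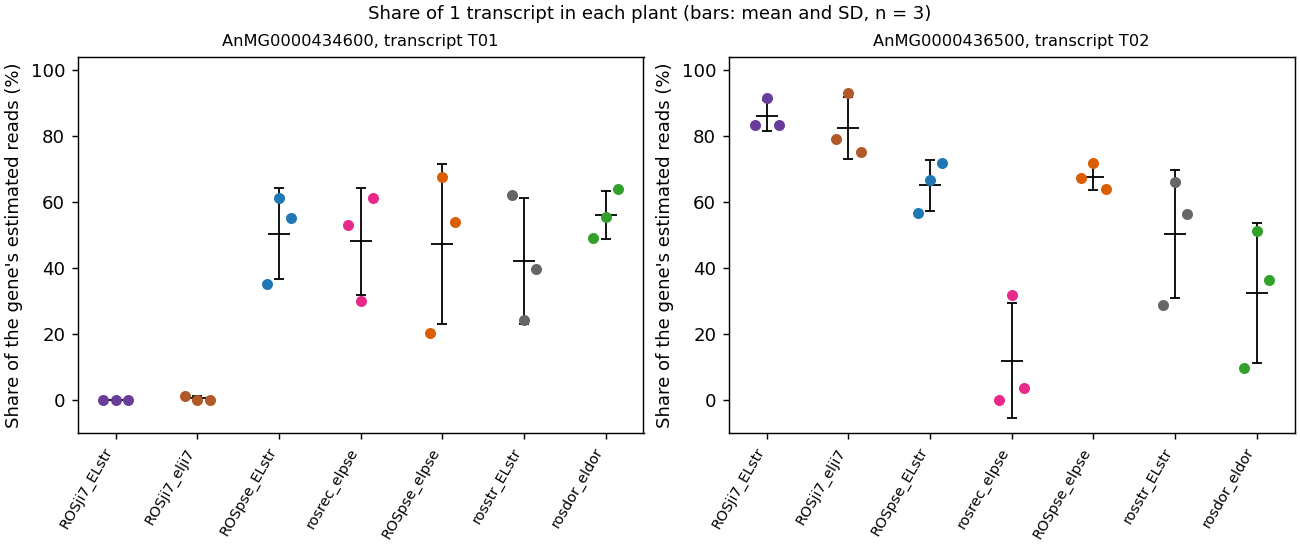
Share of the gene's estimated reads assigned to transcript T01 of AnMG0000434600 (left) and T02 of AnMG0000436500 (right) in each plant, with the mean and SD of the 3 plants of each genotype. T01 is at 0 to 1.25% in the 6 ROSji7 plants and at 20.3 to 67.6% elsewhere; T02 is at 75.3 to 93.1% in ROSji7 plants and at most 71.8% elsewhere.

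The summed level of the members was 2360 ± 59.2 CPM in ROSji7_ELstr, 2295 ± 78.2 in ROSji7_elji7 and 2336 ± 133 in ROSpse_elpse, against 2754 ± 124 in ROSpse_ELstr, 3034 ± 333 in rosrec_elpse, 2904 ± 314 in rosstr_ELstr and 2855 ± 282 in rosdor_eldor (SD, n = 3 each). Part of this was AnMG0000420200. Without it the sums were 2100 ± 49.5, 2009 ± 73.1 and 2043 ± 129 CPM in the first 3 genotypes and 2202 ± 152, 2489 ± 323, 2413 ± 257 and 2315 ± 255 CPM in the other 4, and the range of each of the last 4 genotypes except rosrec_elpse then overlapped that of the first 3.

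An untested gene, AnMG0008707000, is placed on the minus strand from 711610 to 921498 and spans many members, among them AnMG0000425700, AnMG0000423700, AnMG0000422000, AnMG0000421700 and AnMG0000421600. In all, 33 members overlap another placed gene, 25 of them on the same strand. Whether counting used strand is not given in the sources used here. Another 31 genes had equal top scores on scaffold460 and on 9 to 176 sequences in all and were assigned elsewhere by name, and 14 of these were tested.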

How the data were processed

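Corolla RNA of 21 plants was read as 50 bp single-end TruSeq libraries. The submitters' processing notes name cutadapt 1.16, Salmon 0.9.1 and DESeq2, without saying which step each served. For every library the authors deposited Salmon's estimated count (expected count) of each of 51926 transcripts, not normalised, and its TPM, used here to compare levels between genes. The authors also deposited placements of the transcripts on JICv1, each with an alignment score that served here to choose 1 placement per gene. Strand setting and Salmon options are not given in the sources used here.

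Counts were added up to 37234 genes and rounded. Tests were edgeR 4.0.16 quasi-likelihood F tests (R 4.3.3, limma 3.58.1, TMM, a mean per genotype, all 21 libraries, common biological coefficient of variation 0.400). Adjustment was Benjamini-Hochberg over 24674 genes, with calls under 0.05. The standard error of a log2 fold change was its size over the root of F. Pooled groups are contrasts of genotype means. A group with 0 counts gives a lower bound on the fold, against 3 counts over the group; with 1 to 3 counts the ratio has a 95% interval, which covers counting error only. Figures used matplotlib 3.10.9.

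Members, comparisons and lists were chosen with earlier results of these data known. Of 16 comparisons, 4 were added after the data were examined. These were ROSji7 against ROSpse pooled, between the magenta genotypes and between the eluta genotypes, and the difference of EL effects. Named genes were up to 12 with the smallest adjusted p over the genotypes, up to 2 called rises and 2 falls per comparison reaching 1 CPM in the higher group, the 5 of highest mean CPM, genes at 0 in a genotype and reaching 1 CPM in another, the first and last members, those beside the level threshold, and AnMG0000433100. Any other gene was named after its values were seen. Replicates are separate plants, and the tests set differences against the spread between plants of a genotype, estimated over the 7 genotypes together. In every genotype except rosdor_eldor the plants were of a single family, so spread between families hardly enters. On simulated counts of 24161 genes the test over the 7 genotypes found 14% of 100 genes with a simulated 2-fold change and 88% of 100 with a 4-fold one (4 false calls). For ROSpse_ELstr against ROSpse_elpse it found 6% and 69% (3 false calls). The changed genes had a mean of at least 5 CPM and were raised in ROSpse_ELstr alone, and every gene was given the same spread. Recovery of genes at lower levels was not simulated.

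Alternatives were DESeq2 1.42.0, DESeq2's scaling in edgeR, omitting the low-count filter, a term for library series or for plant family, the compared groups alone, the middle library series alone (added later), and leaving out each replicate.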

Additional observations from a re-analysis of the deposited data

How the results depend on the processing

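Of 230 alternative counts of called members, 169 lay within 1.5 times the reported count and 61 did not. Named and called members kept direction in all alternatives run: 994 gene-level values kept their side of the threshold and 259 lost the call. Plants were not paired by replicate number, because these numbers were given in accession order and only name plants. Plant families are shared by rosdor_eldor with 3 genotypes, and family was fitted as a term in 4 comparisons (ROSpse_elpse and rosstr_ELstr against rosdor_eldor, and ROSpse_ELstr against rosstr_ELstr and against ROSpse_elpse), each with 0 called members. Each of these families held 1 rosdor_eldor plant, so the fits rest on single plants of that genotype. Only ROSpse_ELstr against ROSpse_elpse had calls in the main fit, so the absence of calls with a family term shows little.

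With DESeq2 the counts were 18 for ROSji7_elji7 against rosdor_eldor and 18 for ROSji7_elji7 against ROSpse_elpse, 3 for ROSpse_elpse against rosdor_eldor, 3 for rosrec_elpse against rosdor_eldor, 2 for rosrec_elpse against rosstr_ELstr and 1 for the difference of EL effects. With library series as a term they were 19 over the 7 genotypes, 6 for rosrec_elpse against ROSpse_elpse and 1 for rosrec_elpse against rosdor_eldor. In fits of the compared groups alone they were 7 for magenta against white, 0 for eluta against magenta, 0 for ROSji7_elji7 against rosdor_eldor, 0 for ROSpse_ELstr against ROSpse_elpse, 3 for rosrec_elpse against ROSpse_elpse and 3 for ROSji7_elji7 against ROSpse_elpse. In the middle library series alone they were 7 for magenta against white, 0 for eluta against magenta, 6 for ROSji7_elji7 against rosdor_eldor, 0 for ROSpse_ELstr against ROSpse_elpse, 7 for ROSji7_elji7 against ROSpse_elpse, 5 for ROSji7_ELstr against ROSpse_ELstr and 7 for both ROSji7 against both ROSpse genotypes. With plant family as a term ROSpse_ELstr against ROSpse_elpse gave 0. Fits of fewer libraries have fewer residual degrees of freedom; otherwise the cause was not tested.

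With each replicate left out in turn the counts were 18 to 30 over the 7 genotypes (18 without ROSji7_ELstr replicate 1), 6 to 14 for magenta against white, 0 to 2 for eluta against magenta, 4 to 11 for ROSji7_elji7 against rosdor_eldor, 0 to 1 for ROSpse_ELstr against ROSpse_elpse, 0 to 1 for ROSji7_ELstr against ROSji7_elji7 (1 without ROSji7_elji7 replicate 2), 6 to 13 for rosrec_elpse against ROSpse_elpse, 5 to 13 for ROSji7_elji7 against ROSpse_elpse (5 without ROSji7_elji7 replicate 1), 4 to 9 for ROSji7_ELstr against ROSpse_ELstr (4 without any ROSji7_ELstr replicate) and 11 to 17 for both ROSji7 against both ROSpse genotypes; the other comparisons stayed at 0. Members near the threshold of 0.5 CPM rest on few reads.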

Other observations

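The first position of the scaffold holds 2 members with the same footprint, AnMG0001181600 (24329 to 26435) and AnMG0001180600 (24329 to 26436), both on the plus strand. Reads could be split between them, so the level of each is uncertain. AnMG0001180600 took 33.9 to 36.7% of their sum in the ROSji7 plants and 36.2 to 37.9% in the ROSpse plants. In 4 single plants of other genotypes it took most of the sum, among them rosrec_elpse replicate 3 at 80.3%, while the others were at 33.9 to 37.6%. In the white plants rosstr_ELstr replicate 2 had 10.5 CPM of AnMG0001180600 and 0.176 CPM of AnMG0001181600, whereas replicate 1 had 6.38 and 10.8 CPM. The rosdor_eldor plants had 4.93, 13.0 and 14.8 CPM of AnMG0001180600 and 8.18, 1.02 and 1.30 CPM of AnMG0001181600. The sum of the pair was 5.57 ± 0.973 CPM in ROSji7_ELstr, 5.75 ± 1.02 in ROSji7_elji7, 9.30 ± 2.32 in ROSpse_ELstr, 9.23 ± 1.45 in ROSpse_elpse, 14.8 ± 6.28 in rosrec_elpse, 12.5 ± 4.01 in rosstr_ELstr and 14.4 ± 1.52 in rosdor_eldor (SD, n = 3 each). AnMG0001180600 was lower in magenta than in white plants, with 2.72 ± 0.847 CPM in magenta and 8.86 ± 4.57 CPM in white plants (SD, n = 6 each; edgeR adjusted p 0.0239). The sum was not tested, since it was formed after the values were seen.

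AnMG0001178300 (117741 to 120213, minus strand) was another member with all 6 ROSji7 plants below the 15 others, by a small gap. Its levels were 4.64, 4.72 and 4.63 CPM in ROSji7_ELstr and 3.66, 3.32 and 3.40 CPM in ROSji7_elji7 plants, and at least 5.01 CPM in the others. It was lower in ROSji7_elji7 than in rosdor_eldor plants by a log2 fold change of -1.11 ± 0.20 (standard error) at an edgeR adjusted p of 0.0290 and was not called between ROSji7 and ROSpse (edgeR adjusted p 0.0530).

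Single plants stood out for a few members. AnMG0000419900 (965046 to 969321) had 24.4 CPM in ROSji7_elji7 replicate 1 and 1.04 and 0.204 CPM in replicates 2 and 3. AnMG0000435200 (426317 to 431053) had 9.75 CPM in the same plant, against 0.618 and 0.782 CPM in its replicates, and 5.86 CPM in ROSpse_elpse replicate 3 against 0.130 and 0.518 CPM. AnMG0001179200 (74094 to 77694) ranged from 0.507 to 14.7 CPM over the 21 plants with no order by genotype. Among members averaging 1 CPM or more in a genotype, the median coefficient of variation within it was 13.2% in ROSji7_ELstr, 22.1% in ROSji7_elji7, 17.6% in ROSpse_ELstr, 15.3% in ROSpse_elpse, 23.6% in rosrec_elpse, 23.4% in rosstr_ELstr and 24.1% in rosdor_eldor.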
